A study of Mus musculus with 13 samples.

Results

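Fos, Fosb, Jun, Junb, Jund, Egr1, Ier2, Atf3, Nr4a1 and Dusp1 are immediate early genes, transcripts that rise within minutes of a stimulus and are also known to rise while brain cells are being dissociated. These 10 genes, of 52636 genes listed for each mouse, were followed in RNA-Seq data of brain-resident myeloid cells, and each was found by its gene symbol. The genes were listed for what they are known to do, but with earlier results of these data known. All mice were PS2APP, which carry human mutant presenilin 2 and amyloid precursor protein transgenes as homozygotes and form β-amyloid plaques, and all were 14 to 15 months old. The groups were 7 PS2APP;Trem2wt mice (5 females and 2 males), labelled PS2APP, and 6 PS2APP;Trem2ko mice (5 females and 1 male), labelled PS2APP;Trem2KO, which lack Trem2, a lipid-sensing receptor of microglia. The Trem2-null allele came from a C57BL/6N line and PS2APP from a C57BL/6J line, and mice without the PS2APP transgenes were not analysed here. Mice were perfused with cold buffer, cortex and hippocampus were dissociated on ice (the labels call the tissue frozen), and CD11b+ CD45+ Ly6g- Ccr2- cells were sorted. According to the study's methods most such cells are microglia, with some perivascular macrophages. Mouse numbers below only name the mice within a genotype.

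Fos and Jun proteins pair to form AP-1, a transcription factor that binds a short motif in the promoters and enhancers of its targets. The genes of the Fos proteins are kept nearly silent and poised. MAP kinase signalling switches them on through factors already bound to the promoter, such as serum response factor at the CArG box and CREB at the cAMP response element. Egr and Nr4a transcription factors are switched on by the same route, while Dusp1, Atf3 and Ier2 belong to the same wave, Dusp1 as a phosphatase that turns the MAP kinases off again. In microglia these transcripts are widely read as a record of handling between the living brain and the lysis of the cell, because enzymatic or warm dissociation raises them.

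Promoter windows of 300 bases, 250 before and 50 from the annotated first base of the transcript onward, were taken from RefSeq on GRCm38.p6 for 8 of the 10 genes and for Egr2, a relative of Egr1. Capitals mark a match to 1 of 5 motifs searched on both strands: the TATA box TATAAA, the cAMP response element TGACGTCA, the AP-1 motif TGANTCA, the Egr motif GCGNGGGCG, and the CArG box. No match overlapped a match to another motif. Fos, Jun and Dusp1 are shown because they varied together between mice, Nr4a1 because it did not go with them, and Egr2 because it differed between the genotypes.
Fos, chr12:85473640-85473939, plus strand: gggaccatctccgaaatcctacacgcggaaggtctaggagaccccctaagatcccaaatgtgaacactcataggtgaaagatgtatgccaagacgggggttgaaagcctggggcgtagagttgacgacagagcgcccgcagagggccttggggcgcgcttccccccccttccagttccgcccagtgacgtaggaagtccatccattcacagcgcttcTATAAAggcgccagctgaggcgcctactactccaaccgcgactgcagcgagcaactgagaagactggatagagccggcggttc
Jun, chr4:95052173-95052472, minus strand: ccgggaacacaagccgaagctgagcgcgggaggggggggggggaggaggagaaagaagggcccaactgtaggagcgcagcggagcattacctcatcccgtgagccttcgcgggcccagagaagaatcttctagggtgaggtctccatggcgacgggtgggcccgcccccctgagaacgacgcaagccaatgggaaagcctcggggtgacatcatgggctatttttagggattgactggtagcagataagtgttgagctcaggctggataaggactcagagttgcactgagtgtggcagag
Dusp1, chr17:26508423-26508722, minus strand: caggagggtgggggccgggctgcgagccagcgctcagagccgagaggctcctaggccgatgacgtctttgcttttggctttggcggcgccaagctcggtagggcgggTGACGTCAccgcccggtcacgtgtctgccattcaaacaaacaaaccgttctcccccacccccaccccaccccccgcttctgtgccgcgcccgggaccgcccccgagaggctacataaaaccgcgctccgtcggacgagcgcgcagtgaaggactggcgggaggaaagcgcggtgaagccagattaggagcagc
Nr4a1, chr15:101266596-101266895, plus strand: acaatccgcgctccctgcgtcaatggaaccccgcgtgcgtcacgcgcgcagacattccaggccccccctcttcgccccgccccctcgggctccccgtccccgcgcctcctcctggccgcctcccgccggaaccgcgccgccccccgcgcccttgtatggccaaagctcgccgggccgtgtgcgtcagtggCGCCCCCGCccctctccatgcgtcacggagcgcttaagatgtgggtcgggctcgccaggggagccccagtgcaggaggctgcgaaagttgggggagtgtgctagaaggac
Egr2, chr10:67537619-67537918, plus strand: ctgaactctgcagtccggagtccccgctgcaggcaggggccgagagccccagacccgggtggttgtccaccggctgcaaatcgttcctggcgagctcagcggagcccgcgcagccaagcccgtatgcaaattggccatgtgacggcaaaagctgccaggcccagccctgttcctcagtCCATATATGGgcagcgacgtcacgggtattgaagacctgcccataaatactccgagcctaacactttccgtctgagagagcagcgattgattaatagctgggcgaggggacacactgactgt

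With the first transcribed base as position 0, Fos had TATAAA from position -33 to -28, Dusp1 had TGACGTCA from -143 to -136, Nr4a1 had the Egr motif on the opposite strand from -60 to -52, and Egr2 had a CArG box from -72 to -63. RefSeq gives 5 windows for Egr2, of which 1 is printed. The window of the start farthest upstream held no match, and the other 4 held a CArG box beginning at -72, -72, -73 and -133. The printed window and those with -73 and -133 overlap, and their match is the same box, CCATATATGG. The window of Jun held none of the 5 motifs. Of the 8 windows, 5 held a match, the others being Fosb with the Egr motif and Junb with TATAAA. Over all 32851 windows in the RefSeq table, 13.6% held TATAAA, 1.79% TGACGTCA, 7.81% TGANTCA, 5.55% the Egr motif and 1.63% a CArG box. A match describes the letters only, and whether a factor bound there was not measured.

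Total counts per mouse were between 26120961 and 120569609. Trem2 was nearly absent from PS2APP;Trem2ko cells, at 0.887 ± 0.734 (SD, n = 6) nRPKM against 1044 ± 141 (SD, n = 7), where nRPKM is the authors' count per length of gene and depth of library, scaled by a size factor. All 10 defining microglia markers, Tmem119 and P2ry12 among them, were detected in every mouse and took between 59245 and 70303 CPM in sum, CPM being counts scaled to a common library total. Markers of neurons took at most 79.3 CPM, of astrocytes 566, of oligodendrocytes 437, of endothelial and mural cells 108, of border macrophages 208, of monocytes and neutrophils 154 and of lymphocytes 49.7. Single genes weigh heavily in some of these sums. Cd79b had means of 19.2 and 17.5 nRPKM in PS2APP;Trem2wt and PS2APP;Trem2ko mice, beside at most 1.39 for any other lymphocyte marker. Slc1a3 had 46.9 and 57.8, beside at most 11.5 for any other astrocyte marker. Whether the sorted cells themselves carry these 2 transcripts was not tested. In such bulk libraries fewer cells of a type and less RNA per cell cannot be told apart.

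The 10 genes covered a wide range of levels. By the median nRPKM over 13 mice the order was Junb, Jun, Atf3, Jund, Ier2, Dusp1, Egr1, Nr4a1, Fos and Fosb. Not every step of this order was kept within the mice. Junb was above Jun in 10 of 13 mice, Jund above Ier2 in 8, Dusp1 above Egr1 in 9 and Nr4a1 above Fos in 8. The order of these neighbours thus changed between mice, and their differences were not tested. Fos was above Nr4a1 in the 5 mice with the most Fos. Jun was above Junb only in PS2APP;Trem2wt mouse 3 and PS2APP;Trem2ko mice 1 and 2, which are among those 5. Jun was above Atf3, Egr1 above Nr4a1 and Fos above Fosb in all 13, and Atf3 above Jund and Ier2 above Dusp1 in 12.

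**Figure D1:**
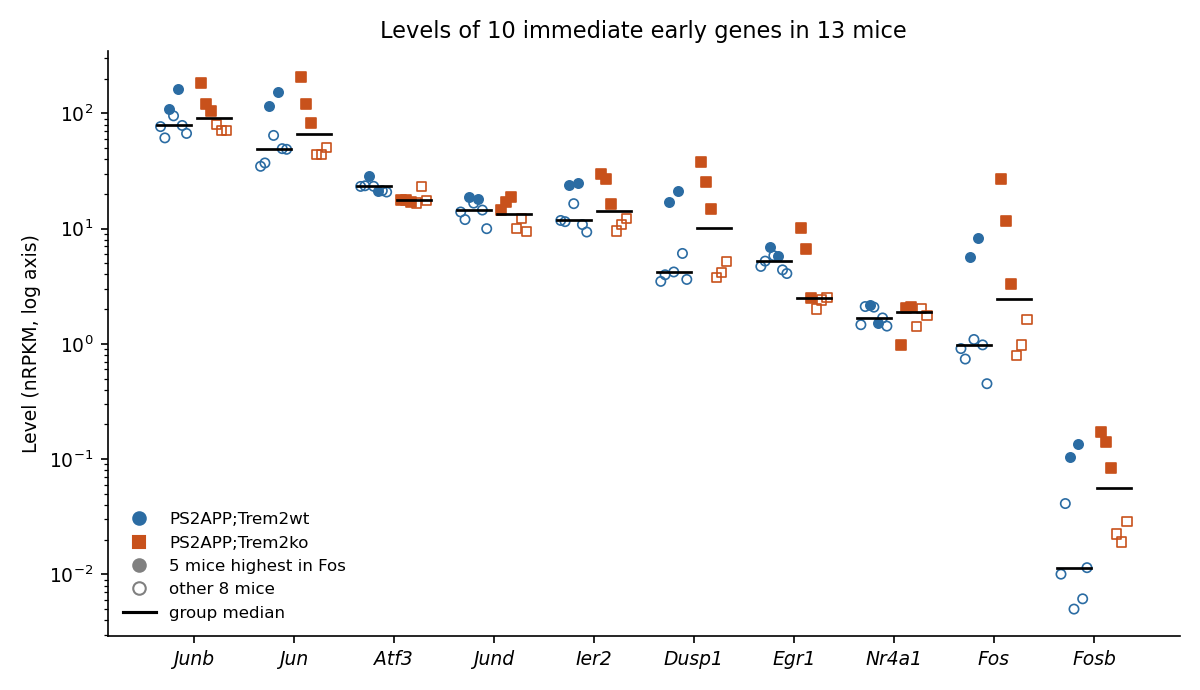
Level of each gene in each mouse as nRPKM on a log axis, with genes ordered by their median, blue circles for the 7 PS2APP;Trem2wt and orange squares for the 6 PS2APP;Trem2ko mice, and black lines for group medians. Filled symbols are the 5 mice highest in Fos, which are also the highest 5 for Fosb, Jun, Junb and Dusp1 but not for Atf3 or Nr4a1. A Fosb value of 0 is drawn at the bottom of the axis.

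Fos (ENSMUSG00000021250, chromosome 12, 85473890 to 85477273, plus strand of GRCm38), the partner that Jun proteins need for their most active AP-1 form, was the most uneven of the 10. Its nRPKM in PS2APP;Trem2wt mice had a lowest value of 0.451, a median of 0.980 and a highest value of 8.29, and in PS2APP;Trem2ko mice 0.795, 2.47 and 27.1. In 5 mice it was high, namely PS2APP;Trem2ko mice 1, 2 and 3 at 27.1, 11.7 and 3.31 and PS2APP;Trem2wt mice 5 and 3 at 8.29 and 5.69. In the other 8 mice it was between 0.451 and 1.63. The genotypes overlapped in part, and PS2APP;Trem2ko mice 1 and 2 exceeded the highest PS2APP;Trem2wt value. All 5 high mice were females, and the 3 males were at 0.975, 0.739 and 0.451. The log2 fold change between the genotypes was 1.54 (SE 0.86), with an adjusted p of 0.433 from edgeR's quasi-likelihood test over all genes. Without PS2APP;Trem2ko mouse 1 the log2 fold change was 0.50.

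Fosb, a second Fos protein gene, was close to the limit of these libraries, at 0 to 41 counts per PS2APP;Trem2wt mouse and 6 to 116 per PS2APP;Trem2ko mouse. Its lowest, median and highest nRPKM were 0, 0.0114 and 0.137 in PS2APP;Trem2wt and 0.0191, 0.0564 and 0.172 in PS2APP;Trem2ko mice. The 5 mice with the most Fosb were the 5 with the most Fos. The log2 fold change was 0.78 (SE 0.80, edgeR adjusted p = 0.708), and the gene passed the filter on low counts in only 7 of the 13 fits with a mouse left out.

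Jun (chromosome 4, 95049034 to 95052222, minus strand, a single exon) and Junb (chromosome 8, 84974484 to 84978718, minus strand) were the most abundant of the 10. For Jun the lowest, median and highest nRPKM were 34.7, 49.4 and 153 in PS2APP;Trem2wt mice and 43.9, 66.7 and 205 in PS2APP;Trem2ko mice. For Junb, whose protein is a weaker activator that can hold Jun in check, they were 61.3, 78.5 and 164 against 71.1, 92.0 and 182. The 5 mice highest in Fos were again the highest 5 for both genes, and the other 8 mice, of both genotypes, lay below them. Log2 fold changes were 0.34 (SE 0.42) for Jun and 0.16 (SE 0.25) for Junb, and edgeR gave adjusted p-values of 0.765 and 0.816. Jund, the Jun gene that is held at a steady level in most cells, had lowest, median and highest values of 9.99, 14.5 and 18.8 against 9.47, 13.4 and 19.0 and a log2 fold change of -0.12 (SE 0.18, edgeR adjusted p = 0.815). Of the 50-base words of Jund, 48.3% also occur in the antisense gene Gm11175, which had 0 counts in every mouse, and for Jun and Junb the shares with a neighbour on the other strand were 5.83% and 5.76%. The study does not say whether counting used the strand, so reads in these stretches cannot be assigned.

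Egr1, a zinc finger factor of the same wave, had a lowest, median and highest nRPKM of 4.08, 5.23 and 6.87 in PS2APP;Trem2wt mice and of 2.01, 2.50 and 10.2 in PS2APP;Trem2ko mice. The pattern was unlike that of Fos. In PS2APP;Trem2ko mice 1 and 2, which had the most Fos, Egr1 was at 10.2 and 6.69, while the other 4 PS2APP;Trem2ko mice were between 2.01 and 2.52, below every PS2APP;Trem2wt mouse. The log2 fold change over all 13 mice was -0.27 (SE 0.34, edgeR adjusted p = 0.772). Without PS2APP;Trem2ko mouse 1 it was -0.70.

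Ier2 (chromosome 8, 84661331 to 84662852, a single exon), a small nuclear protein gene, had lowest, median and highest values of 9.34, 11.8 and 24.8 against 9.51, 14.3 and 29.7 and a log2 fold change of 0.18 (SE 0.30, edgeR adjusted p = 0.843). Dusp1 (chromosome 17, 26505590 to 26562128) had values of 3.48, 4.21 and 21.1 against 3.77, 10.03 and 38.0. Its high mice were the 5 of Fos, at 38.0, 25.3, 21.1, 17.1 and 14.9, and its other 8 mice were between 3.48 and 6.09. The log2 fold change of Dusp1 was 0.83 (SE 0.60, edgeR adjusted p = 0.562), and 0.32 without PS2APP;Trem2ko mouse 1.

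Atf3, a repressor that is switched on by stress, and Nr4a1, an orphan nuclear receptor, did not go with the others. Atf3 had lowest, median and highest values of 20.8, 23.2 and 28.4 in PS2APP;Trem2wt mice and 16.7, 17.7 and 23.2 in PS2APP;Trem2ko mice. In 5 of 6 PS2APP;Trem2ko mice Atf3 was below every PS2APP;Trem2wt mouse, and mouse 5, the male, was the exception at 23.2. The log2 fold change was -0.33 (SE 0.09) with an unadjusted p of 0.00219 and an adjusted p of 0.0774 from edgeR, so the difference did not pass the test over all genes. The adjusted p from edgeR was 0.0126 without PS2APP;Trem2ko mouse 5 and 0.0283 in females only, and DESeq2 gave an adjusted p of 0.0162. Over all alternatives (edgeR, voom+limma, limma or DESeq2) and left-out mice, the adjusted p lay between 0.0126 and 0.157. Nr4a1 had values of 1.43, 1.68 and 2.16 against 0.984, 1.90 and 2.08 and a log2 fold change of -0.04 (SE 0.18, edgeR adjusted p = 0.947). The mouse with the most Fos had the least Nr4a1.

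Between the genotypes 0 of the 10 genes passed an adjusted p of 0.05 in edgeR's quasi-likelihood test, where 2.04% of the 17086 genes tested did. At an unadjusted p of 0.05 there was 1 of 10, Atf3, against 14.8% of all genes. DESeq2 called 1, Atf3, and voom+limma called 0. Of the 10 log2 fold changes 6 were above and 4 below 0, with a median of 0.17 beside 0.0039 over all genes tested, and the values of the genotypes overlapped for all 10. For Fos, Fosb and Dusp1 the standard errors were 0.86, 0.80 and 0.60 on the log2 scale, so that differences of that size were not detectable with this spread between mice.

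**Figure D2:**
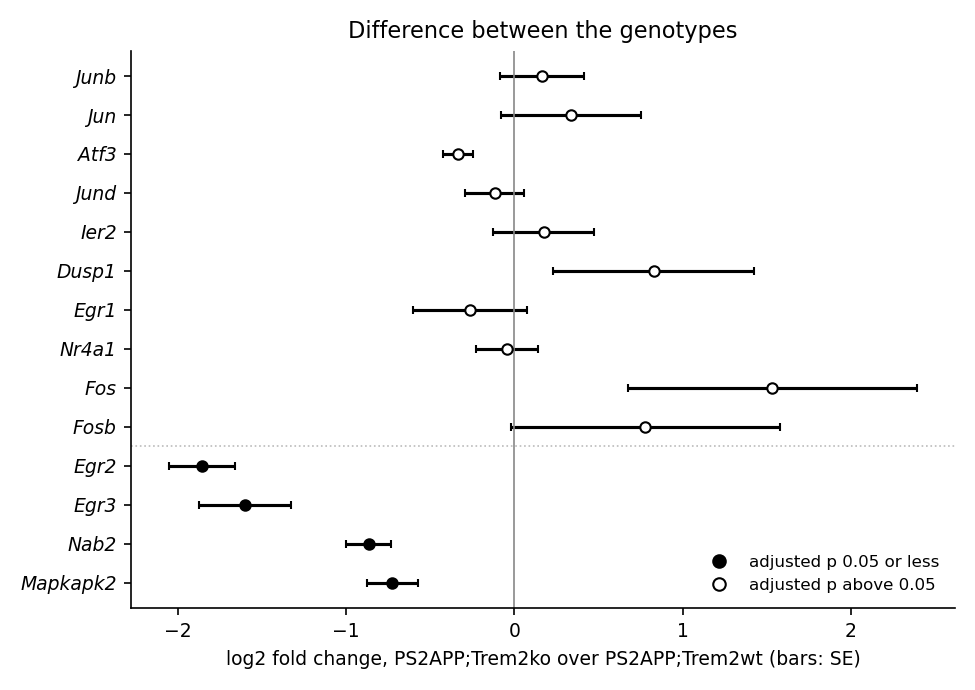
Log2 fold change of PS2APP;Trem2ko over PS2APP;Trem2wt for the 10 genes, above the dotted line, and for the 4 genes of the wider lists that passed the test, below it, with SE bars from edgeR and filled symbols for an adjusted p of 0.05 or less. The 10 genes are all open symbols and those with the highest SD between mice have the widest bars, while Egr2, Egr3, Nab2 and Mapkapk2 are filled and lie between -1.86 and -0.73.

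The spread between mice was the more prominent feature of these genes. As a measure, the SD of log2 CPM around the genotype means was taken, pooled over both genotypes. Its median over the 10 genes was 0.65, against 0.28 over all genes tested, and 9 of the 10 were above the median of all genes. The SD was 1.79 for Fos, 1.51 for Fosb, 1.26 for Dusp1, 0.86 for Jun, 0.67 for Egr1, 0.62 for Ier2, 0.50 for Junb, 0.36 for Jund, 0.35 for Nr4a1 and 0.16 for Atf3. Without PS2APP;Trem2ko mouse 1 the median over the 10 genes was 0.48.

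Low counts widen an SD, so each gene was also set beside the genes within 1 log2 CPM of its own mean level. Fos was above 99.8% of 2840 such genes, Dusp1 above 99.9% of 4204, and Jun above 99.8% of 901. Egr1, Junb and Ier2 were above 99.4%, 99.3% and 99.2% of theirs, and Jund above 95.6%. Fosb was above 82.9% of genes at its low level, so most of its large SD is shared by genes with as few counts. Nr4a1, at 62.7%, and Atf3, at 48.9%, varied between mice about as much as other genes of their level. From the lowest to the highest mouse Fos differed 60.1-fold, Dusp1 10.9-fold, Jun 5.91-fold, Egr1 5.07-fold, Ier2 3.18-fold, Junb 2.97-fold, Nr4a1 2.20-fold, Jund 2.001-fold and Atf3 1.71-fold.

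**Figure D3:**
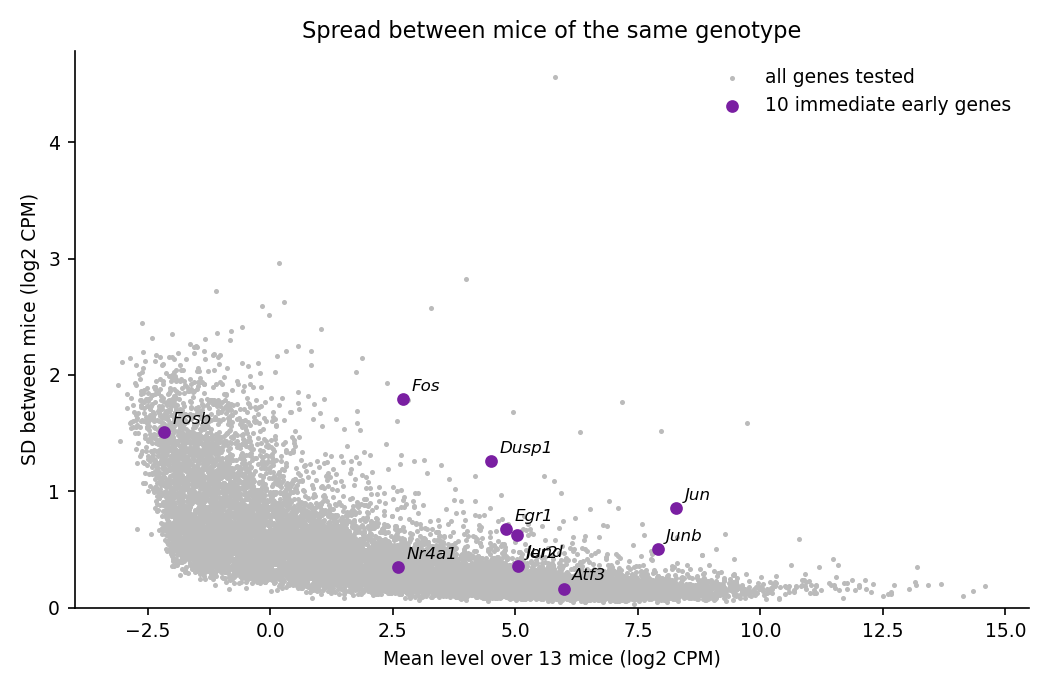
SD between mice of the same genotype against mean level, both in log2 CPM, for all 17086 genes tested (grey) and the 10 immediate early genes (purple). Fos, Dusp1, Jun, Junb, Egr1 and Ier2 lie along the upper edge of the cloud at their level, while Atf3 and Nr4a1 lie inside it.

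Whether the spread differed between the genotypes was tested with limma on the absolute deviations of the mice from their genotype mean, over all genes. None of the 10 genes passed an adjusted p of 0.05, and 0.00585% of the 17086 genes did (1 gene, Xist). In simulated data with an SD of 2 log2 added to PS2APP;Trem2ko mice, this test recovered 98 of the 199 changed genes. The lack of calls therefore does not show that the spreads were equal. At an unadjusted p of 0.05 there was 1 of the 10, Egr1, against 1446 of all genes. The SD of Egr1 in log2 CPM was 0.26 in PS2APP;Trem2wt and 0.96 in PS2APP;Trem2ko mice (limma adjusted p = 0.444). For Fos these SDs were 1.57 and 2.03, for Dusp1 1.10 and 1.43, and for Jun 0.82 and 0.90.

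The genes did not vary each on its own. Fos was taken as the reference and the slope of every other gene on the log2 CPM of Fos was tested in limma with genotype in the model, so that differences between the genotypes did not enter. Of the 9 other members, 5 passed an adjusted p of 0.05 over all genes, all with a positive slope, where 0.0819% of the 17085 genes did (14 genes). Dusp1 changed by 0.68 log2 (SE 0.05) per log2 of Fos, Jun by 0.45 (SE 0.04), Ier2 by 0.34 (SE 0.03), Egr1 by 0.32 (SE 0.05) and Junb by 0.26 (SE 0.03). The adjusted p-values from limma were 3.77e-06, 5.14e-05, 1.74e-05, 0.0480 and 0.00107 in the same order. With each mouse left out in turn, Dusp1, Jun, Ier2 and Junb passed in 13 of 13 fits, and Egr1 in 2, its adjusted p lying between 0.00790 and 0.143. Fosb had a steep slope of 0.69 that was less certain (SE 0.16, limma adjusted p = 0.161), and Jund had 0.15 (SE 0.04, adjusted p = 0.256).

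As deviations from the genotype mean over the 13 mice, Pearson's r with Fos was 0.97 for Dusp1 and Ier2, 0.95 for Jun, 0.93 for Junb, 0.84 for Egr1, 0.82 for Fosb and 0.72 for Jund. Spearman's rho was 0.97 for Dusp1, 0.95 for Ier2, 0.87 for Jun, 0.88 for Junb, 0.81 for Egr1 and Jund, and 0.69 for Fosb. In exact two-sided permutation tests over the 3628800 arrangements of mice within the genotypes, the p of r was 1.18e-05 for Dusp1, 1.65e-06 for Ier2, 8.21e-05 for Jun, 3.55e-05 for Junb, 0.000272 for Egr1, 0.000926 for Fosb and 0.0127 for Jund, and the p of rho was 3.94e-05, 1.63e-05, 0.000784, 0.000228, 0.000678, 0.0114 and 0.00324. These are 9 relations with p-values as computed, and the limma values above are those adjusted over all genes. Atf3, with r of -0.01 (exact permutation p = 0.978) and rho of 0.05 (exact permutation p = 0.866), and Nr4a1, with r of -0.22 (exact permutation p = 0.548) and rho of 0.12 (exact permutation p = 0.726), showed no relation with Fos.

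Within each genotype r was positive for these genes. Within PS2APP;Trem2wt mice r was 0.97 for Dusp1, 0.95 for Ier2, 0.92 for Jun and Junb and 0.77 for Egr1, and within PS2APP;Trem2ko mice it was 0.98, 0.99, 0.99, 0.95 and 0.96. Without PS2APP;Trem2ko mice 1 and 2, which were farthest from the median of Fos, r was 0.96 for Dusp1 and Ier2, 0.92 for Jun, 0.89 for Junb, 0.76 for Egr1, 0.79 for Fosb and 0.76 for Jund. Most of it lay between the mice with high Fos and the rest. Over the 8 mice with the lowest Fos, a subset chosen after the values were seen, r was 0.77 for Ier2, 0.67 for Egr1, 0.59 for Dusp1, 0.57 for Jund, 0.40 for Junb, 0.26 for Jun and -0.32 for Fosb.

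**Figure D4:**
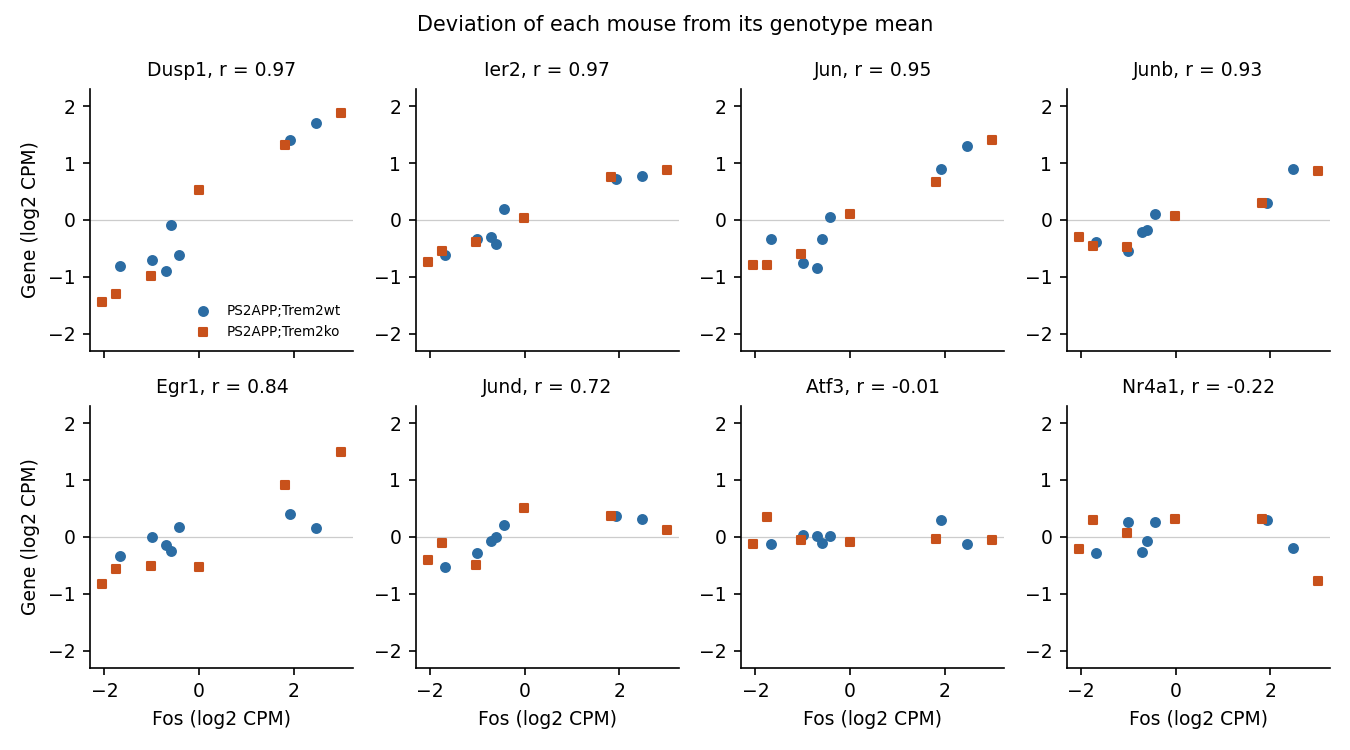
Deviation of each mouse from its genotype mean in log2 CPM, with Fos on the horizontal axis and 1 other gene on the vertical axis of each panel, for 7 PS2APP;Trem2wt (blue circles) and 6 PS2APP;Trem2ko mice (orange squares). Dusp1, Ier2, Jun and Junb rise with Fos in both genotypes (r of 0.93 to 0.97), while Atf3 and Nr4a1 do not (r of -0.01 and -0.22).

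Among the 45 pairs of the 10 genes, 34 had a positive r, with a median of 0.72. The 28 pairs without Atf3 and Nr4a1 were all positive, between 0.48 and 0.97 with a median of 0.80, and the highest was that of Fos with Dusp1. All 11 negative pairs held Atf3 or Nr4a1, the lowest being Junb with Nr4a1 at -0.35.

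The 10 genes outside the list whose pattern over the 13 mice was most like the mean of the 10 members were F9, Ndufa10, Taf1a, Ccl3, Phf13, Ccl4, Rgs1, Glipr1, Mocos and Gm26887. As a description, Pearson's r was between 0.86 and 0.92, and all 13 points share library and depth with the members. Rgs1 was the only one of them that also passed the slope test on Fos (slope 0.19, SE 0.02, limma adjusted p = 0.00185). Outside the members 9 genes passed that test, 4 with a positive and 5 with a negative slope, and they are named here because their values were seen. Positive slopes were those of Hist1h1d (0.87), a linker histone gene, Gm10382 (0.74), Zfp36 (0.36), whose protein speeds the decay of cytokine transcripts, and Rgs1, which dampens chemokine receptor signalling. Negative slopes were those of Gm44260 (-0.27), Gm45203 (-0.21), Mrtfb (-0.20), a coactivator of serum response factor, Zfp407 (-0.19) and Nfia (-0.16).

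Several measures of the libraries were set beside this pattern. The 5 mice highest in Fos had between 40868927 and 120569609 counts, and 2 mice with 116906312 and 114857155 counts were among the 8 low ones. Over the 13 mice, r with Fos was 0.21 for the log2 of total counts, 0.03 for the number of genes detected, 0.21 for the percentage of counts on mitochondrial genes, which was between 0.180% and 0.337%, and 0.52 for the percentage of counts in the 100 highest genes, which was between 31.1% and 35.6%. For the summed markers of each cell type r with Fos was -0.48 for neurons, -0.32 for microglia, -0.22 for endothelial and mural cells, -0.11 for monocytes and neutrophils, -0.10 for astrocytes, 0.05 for oligodendrocytes, 0.13 for lymphocytes and 0.25 for border macrophages. None of the tested genes of these 8 marker lists passed the slope test on Fos. Mice of both genotypes were generally taken through perfusion, dissociation and sorting side by side, but the labels do not say which mice, so that no value within a sorting session could be given. The part of the preparation of the cells in the spread was therefore not tested.

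Given the large share of the spread that went with Fos, the genotypes were also compared with the log2 CPM of Fos in the model, in limma, an alternative chosen after the data were seen. Of the 9 members other than Fos, 1 passed an adjusted p of 0.05, Egr1, where 2.29% of 17085 genes did, and 8 of the 9 log2 fold changes were below 0. In this model each log2 fold change is shifted by the gene's slope on Fos times the Fos difference between the genotypes. That difference was 1.16 (SE 0.84, limma adjusted p = 0.552) and did not pass the test. Genes with a positive slope, Egr1 among them, therefore moved down by construction, and the count below 0 is no separate result. For Egr1 the log2 fold change at equal Fos was -0.91 (SE 0.19, limma adjusted p = 0.0217), against -0.54 (SE 0.32, adjusted p = 0.442) in limma without Fos. It passed in 10 of 13 fits with a mouse left out, and without PS2APP;Trem2ko mouse 4, 5 or 6 it did not, the adjusted p rising to at most 0.0739. Over the other alternatives with no Fos term the adjusted p of Egr1 was never at 0.05 or less. At equal Fos, Atf3 was at -0.34 (SE 0.10, limma adjusted p = 0.0888) and Ier2 at -0.26 (SE 0.09, adjusted p = 0.174), and Jun, Junb and Dusp1 were at -0.23, -0.15 and -0.13 (limma adjusted p = 0.458, 0.529 and 0.758).

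Egr2 and Egr3, zinc finger factors closely related to Egr1, were lower in PS2APP;Trem2ko cells, and they were the 2 genes that passed the test among 42 tested of 45 other immediate early genes, with none higher. Over all genes tested 2.04% passed. This list, like the other gene lists, was written with earlier results of these data known. Egr2 had a lowest, median and highest nRPKM of 4.29, 7.14 and 10.8 in PS2APP;Trem2wt and of 1.49, 1.90 and 2.60 in PS2APP;Trem2ko mice. All 6 PS2APP;Trem2ko mice were below all 7 PS2APP;Trem2wt mice. The log2 fold change was -1.86 (SE 0.20, edgeR adjusted p = 8.18e-05). Egr3 had values of 0.161, 0.310 and 0.413 against 0.0557, 0.105 and 0.120, again without overlap, at 27 to 138 counts per mouse, and a log2 fold change of -1.60 (SE 0.27, edgeR adjusted p = 0.00516). Both passed in all 13 fits with a mouse left out. The share of all genes without overlap between the genotypes is not given here.

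Egr2 was less uneven within a genotype than Fos, with a pooled SD of 0.38 against 1.79 log2 CPM. The SD of Egr2 was above that of 62.7% of all genes tested, and Egr2 was not set beside genes of its own level. It differed 2.51-fold between the lowest and the highest PS2APP;Trem2wt mouse and 1.75-fold among PS2APP;Trem2ko mice. Its slope on Fos was -0.0023 (SE 0.06, limma adjusted p = 0.996), and that of Egr3 was -0.02 (SE 0.08, adjusted p = 0.962). At equal Fos the log2 fold changes of Egr2 and Egr3 were -1.83 and -1.51. The gene with the largest positive log2 fold change of this list was Plk2, a kinase gene, at 0.83 (SE 0.22, edgeR adjusted p = 0.0659), and the median of the 42 was -0.05 beside 0.0039 for all genes. Against Fos, 2 genes of this list had a positive slope past the test, Zfp36 and Rgs1.

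Among 32 tested of 32 AP-1 partners and upstream regulators, 2 passed as lower and none as higher, where 2.04% of all genes passed. The median log2 fold change of the list was -0.04. Nab2, whose protein binds Egr factors and represses their targets, and whose own gene is an Egr target, was at 7.03 ± 1.64 (SD, n = 7) against 3.86 ± 0.32 (SD, n = 6) nRPKM with no overlap between the genotypes. The share of all genes without overlap is again not given. The log2 fold change of Nab2 was -0.87 (SE 0.13, edgeR adjusted p = 0.00212), and it passed in all 13 fits with a mouse left out. Of the 50-base words of Nab2, 34.9% also occur in Gm16229, so part of its count is uncertain. Mapkapk2, a kinase downstream of p38, was at 38.5 ± 11.1 (SD, n = 7) against 23.3 ± 2.74 (SD, n = 6) nRPKM, which is -0.73 on the log2 scale (SE 0.15, edgeR adjusted p = 0.0211). It passed in 11 of the 13 fits, its adjusted p rising to 0.0527 without PS2APP;Trem2ko mouse 4 and to 0.0503 without mouse 6. Jdp2, which dimerises with Jun and represses, had the largest positive log2 fold change of the list at 0.43 (SE 0.21, edgeR adjusted p = 0.364).

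**Figure D5:**
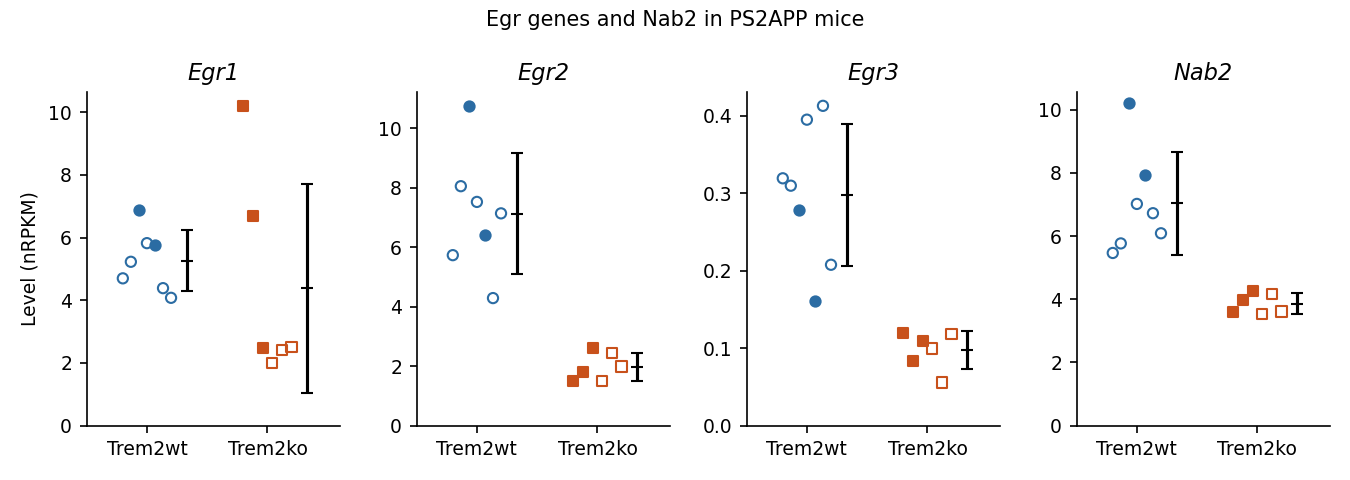
Level in nRPKM of Egr1, Egr2, Egr3 and Nab2 in each of 7 PS2APP;Trem2wt (blue circles) and 6 PS2APP;Trem2ko mice (orange squares), with the mean and SD of each genotype in black and filled symbols for the 5 mice highest in Fos. For Egr2, Egr3 and Nab2 the genotypes do not overlap, while for Egr1 PS2APP;Trem2ko mice 1 and 2 reach 10.2 and 6.69 and the other 4 lie between 2.01 and 2.52. The share of all genes without overlap is not given.

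No gene of the other 3 lists passed the genotype test. At an unadjusted p of 0.05 in edgeR there was 1 of 8 tested MAP kinase phosphatases (of 10), 1 of 14 tested heat shock chaperones (of 15) and 2 of 17 tested genes of an ex vivo inflammatory response (of 18). Over all genes tested the share was 14.8%. DESeq2 called 0, 1 (Bag3, a co-chaperone gene) and 0. Among the phosphatases Dusp9 had the lowest log2 fold change, at -1.07 (SE 0.48, edgeR adjusted p = 0.312), and Dusp10 the highest, at 0.41 (SE 0.30). Among the chaperones these were Hsp90aa1 at -0.21 (SE 0.17) and Hspa1b at 0.71 (SE 0.57), whose reads are hard to tell from those of its near-identical copy Hspa1a. Among the inflammatory genes they were the chemokine genes Cxcl2 at -0.54 (SE 0.65) and Cxcl10 at 1.25 (SE 0.54, edgeR adjusted p = 0.288). The medians of the 3 lists were -0.13, -0.02 and 0.03.

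The lists also differed in how they went with the members from mouse to mouse. The median r of single genes with the mean of the 10 members was 0.57 for the inflammatory genes, 0.40 for the other immediate early genes, 0.13 for the chaperones, 0.08 for the phosphatases and -0.08 for the AP-1 partners, against 0.0004 over all genes. These medians describe the lists and were not tested. The summed level of the inflammatory genes was between 828 and 1192 CPM in PS2APP;Trem2wt and between 868 and 1370 CPM in PS2APP;Trem2ko mice, and its r with Fos was 0.74. Of its 17 tested genes, 9 had an unadjusted p of 0.05 or less for the slope on Fos, where 10.7% of all genes did, among them Ccl3, Ccl4 and Tnf with slopes of 0.15, 0.22 and 0.24, and none passed after adjustment (adjusted p = 0.118, 0.102 and 0.184 from limma). The heat shock chaperones, which warmth and unfolded protein raise, had a summed level between 2026 and 2633 CPM with an r of 0.12 with Fos. Abundant genes such as Hspa5, at a mean of 322 nRPKM in PS2APP;Trem2wt mice, weigh most in this sum, and rare ones hardly enter it. Of their 14 tested genes 2, Hspa1b and Hsp90ab1, had an unadjusted p of 0.05 or less for the slope and none passed after adjustment. Hspa1b, at group means of 0.172 and 0.288 nRPKM, had a slope of 0.39 (SE 0.13, limma adjusted p = 0.338). Its r with the mean of the members was 0.72, and that of Hspa1a was 0.33.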

How the data were processed

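RNA-Seq of sorted cells from 7 PS2APP;Trem2wt and 6 PS2APP;Trem2ko mice was analysed, each mouse being 1 replicate. The authors aligned the reads with GSNAP to GRCm38 (no version is given in the submitters' processing notes) and deposited counts of reads per gene, not normalized, and nRPKM, an RPKM scaled by a size factor. Levels are nRPKM as deposited, and the deposited counts were used for tests and log2 CPM. Symbols and coordinates came from GENCODE M21 on GRCm38. With edgeR 4.0.16 in R 4.3.3, filterByExpr by genotype kept 17086 genes, scaling was by TMM, glmQLFTest compared the genotypes without a covariate, and p-values were adjusted by Benjamini-Hochberg over all genes. The SE is the log2 fold change over the square root of F. Slopes and absolute deviations were tested with limma 3.58.1 on log2 CPM (prior count 2). Correlations used exact permutation within genotype (Python 3.11.15, numpy 2.4.6).

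Alternatives were voom+limma, which the study used, DESeq2 1.42.0, size factors by RLE, all genes without filtering or those with 10 counts in 6 mice, a term for sex, the females alone, log2(nRPKM + 0.1) or log2(nRPKM + 1) in limma, and each mouse left out. The Fos covariate was added after the data were seen. Scripts were tested on simulated data. The 10 members and all gene lists were chosen with earlier results of these data known. Besides the members, the genes named are those of each pathway list past the test and its largest fold change in each direction, and the 10 genes most like the members. Tnf, Maff, Bag3, Zfp36l2, Hspa5, Hspa1a, Hsp90ab1 and the other genes with a slope on Fos were named after their values were seen. So were Xist, Cd79b and Slc1a3. The precision of a value is that of the spread between mice, and a floor of 3 counts was between 0.0249 and 0.115 CPM.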

Additional observations from a re-analysis of the deposited data

Results flagged for a closer look

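Of 30 sets of nRPKM values (15 genes in each genotype), 4 had a single mouse set apart from the rest of its genotype by a gap that was a large part of the whole range. By chance about 1 in 20 such sets would. Atf3 of PS2APP;Trem2wt mouse 3, at 28.4 with the other 6 mice at 20.8 to 23.5, had a gap of 0.641 of the range. Atf3 of PS2APP;Trem2ko mouse 5, a male at 23.2 with the other 5 at 16.7 to 17.7, had a gap of 0.843. Mapkapk2 of PS2APP;Trem2wt mouse 3, at 60.9, had a gap of 0.583. Trem2 of PS2APP;Trem2ko mouse 4, at 2.29, had a gap of 0.691, and even this value was far below the 818 of the lowest PS2APP;Trem2wt mouse.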

How the results depend on the processing

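The number of the 10 members past an adjusted p of 0.05 between the genotypes was 0 in edgeR and 1 with DESeq2 and in females only (Atf3 in both) and with the Fos covariate (Egr1), and 0 to 1 with each mouse left out. The other immediate early genes gave 2 in edgeR and 5 with DESeq2, which added Maff, Plk2 and Zfp36l2. The AP-1 partners gave 2, 3 with the Fos covariate, which added Mrtfb, and 1 to 2 with each mouse left out. The heat shock chaperones gave 0, and 1 with DESeq2. The inflammatory genes gave 0, and 1, Ccl3, with the Fos covariate. With the Fos covariate the log2 fold change turned to -0.23 for Jun, -0.15 for Junb, -0.26 for Ier2 and -0.13 for Dusp1. These turns follow from the positive slopes of these genes and the higher mean Fos of PS2APP;Trem2ko mice, a difference that did not pass the test. With each mouse left out, the log2 fold change was between -0.070 and 0.64 for Jun, -0.061 and 0.36 for Junb, -0.035 and 0.33 for Ier2, and -0.10 and 0.079 for Nr4a1, so that the direction of none of these 4 held throughout, and it was between 0.32 and 1.23 for Dusp1 and 0.50 and 2.18 for Fos. The cause was not tested. The median SD of the members was 0.65, 0.57 on log2(nRPKM + 0.1), and 0.48 to 0.68 with each mouse left out. The number of members that followed Fos was 4 or 5 under every alternative, and no alternative called a member for its spread between genotypes. With sex as a covariate, the only male PS2APP;Trem2ko mouse had no other of its kind and was dropped from the test of spread. No paired analysis was possible because the labels do not say which mice were processed together.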
